A study of Mus musculus with 2 samples.

Results

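Myc and the gene desert downstream of it were described as a stretch of mouse chromosome 15 from 61.7 to 63.6 Mb on the mm9 genome, which places Myc at about 61.817 to 61.822 Mb, the neighbouring long non-coding RNA gene Pvt1 up to about 62.1 Mb, and little else that is protein-coding beyond it. Places with an excess of STAT3 or STAT5 reads, called sites here, were found over the whole genome by the same rule, and those centred in this interval were kept: 141 of 86148 sites. The gene positions are rounded, so distances from Myc are counted from 61.817 Mb and carry an uncertainty of the order of a kilobase.

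Myc encodes a transcription factor that drives growth and division of activated T cells. In blood cells its transcription depends on enhancers scattered through Pvt1 and far into the gene desert downstream, which contact the promoter over long distances. STAT5 is activated through the IL-2 receptor and STAT3 through the IL-6 receptor; once phosphorylated, both enter the nucleus as dimers and bind closely related DNA elements, so the same site can be open to either factor. The files hold reads of antibody-bound DNA and no expression or chromatin data, so the sites below are places with reads and were not tested for enhancer activity.

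The cells were CD4+ T cells of wild-type C57BL/6J mice, taken from lymph nodes and spleen, sorted as naive (CD44- CD62L+) and grown for 3 days on CD3 and CD28 antibodies. The medium held IL-6 (20 ng/ml) together with TGF-beta (2 ng/ml), which makes them Th17 cells, and an antibody to IL-4. An antibody to IL-2 is listed too, but in the unit usual for the cytokine itself, so whether IL-2 was blocked is unclear. For 30 minutes before fixation the cells then received IL-6 at 40 ng/ml (the STAT3 library, made with a STAT3 antibody) or IL-2 at 200 IU/ml (the STAT5 library, made with a mixture of STAT5A and STAT5B antibodies). Cytokine and antibody changed together and cannot be told apart, each library stands alone, and no input or IgG library was analysed here, so every interval below covers counting error only.

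The libraries held 20784388 STAT3 and 17963766 STAT5 reads outside the mitochondrial genome, at most 1 for each position and strand. A window of 200 bp held 1.76 STAT3 and 1.52 STAT5 reads on average over the genome, and could hold at most 400. A site is given by its reads in 200 bp around its centre and by its ratio, which here always means STAT5 over STAT3 after scaling to the nuclear reads of each library (RPM), with an exact conditional 95% interval. A site was called higher with an antibody only when that interval lay wholly beyond 2-fold.

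**Figure D1:**
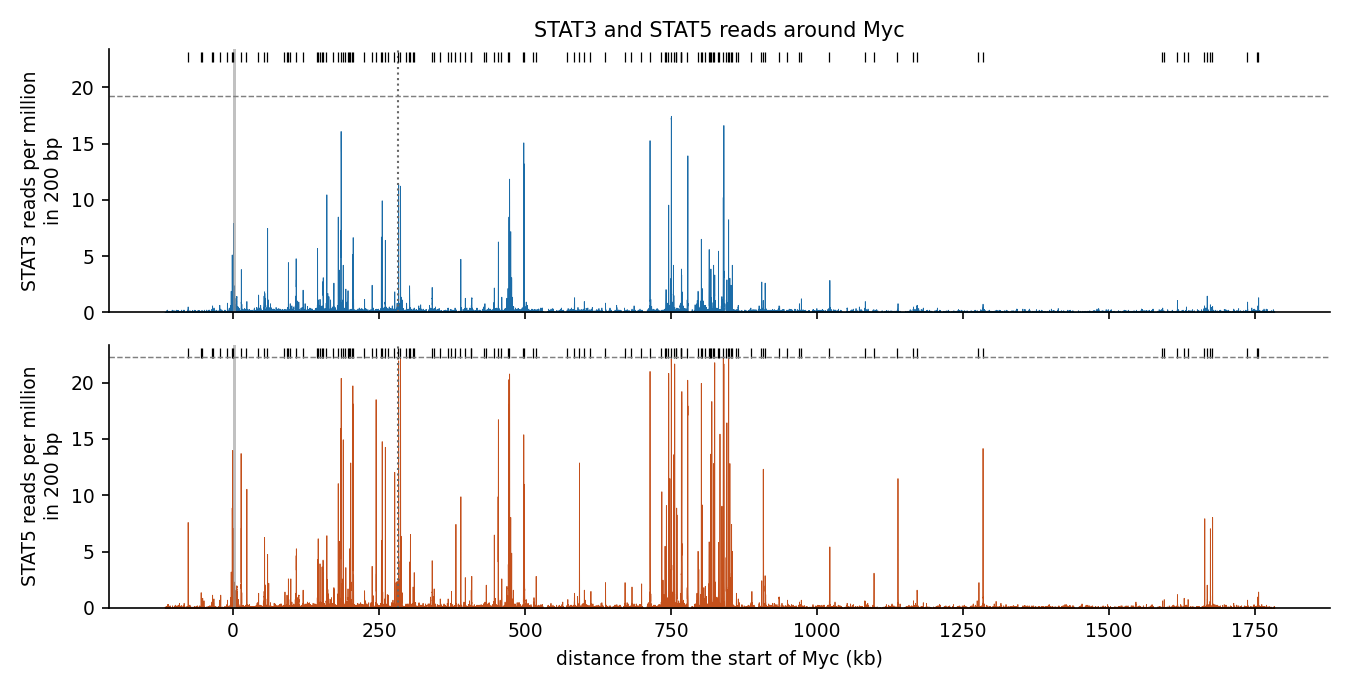
RPM in 200 bp windows (y axis) against distance from the start of Myc in kb (x axis), for STAT3 (top) and STAT5 (bottom). Ticks at the top of each panel mark the 141 sites, the grey bar Myc, the dotted line the approximate end of Pvt1 and the dashed line the most reads a window can hold. Both libraries have tall sites through Pvt1, near 473 and 497 kb, and again between about 713 and 853 kb. Beyond 1000 kb 5 sites have 100 or more STAT5 reads and none has 100 STAT3 reads.

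Sites were dense around Myc, and STAT5 was the taller factor at most of them. The interval held 74.2 sites per Mb, against 37.1 on chromosome 15 and 36.5 over the genome. The median site had 77 STAT5 reads (quartiles 27 and 217) and 22 STAT3 reads (6 and 66), whereas the median over all sites of the genome was 31 STAT5 and 25 STAT3 reads. Of the 141 sites, 73 (51.8%) were higher with STAT5, where 27.7% of all sites of the genome were. Sites with 100 or more STAT5 reads were also more frequent here (44.0% against 16.5%). Among those tall sites the shares higher with STAT5 were closer, 69.4% and 61.1%. None of the 141 was higher with STAT3, where 3.18% of all sites were; with regions called against the genome-wide mean alone, 2 of 227 sites of the interval were. The ratio interval lay above 1 at 105 sites, held 1 at 31 and lay below 1 at 5. These counts by ratio interval were not set beside all sites of the genome and describe this interval only. The median ratio was 3.47, against 1.35 over the genome.

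A site lacking a region of an antibody was seldom empty of it in the case of STAT5. By region calls, 60 sites belonged to both libraries (42.6%, against 47.7% over the genome), 67 to STAT5 only and 14 to STAT3 only. Of the 14 STAT3-only sites 13 had STAT5 reads at or above 4 times the genome-wide mean, and 2 were higher with STAT5. Of the 67 STAT5-only sites 24 had STAT3 reads at or above 4 times the mean, and 55 were higher with STAT5. Counted by that level alone, 97 sites had both factors at or above it, 43 only STAT5 and 1 only STAT3. Apart from the share of sites of both libraries, these counts were not set beside all sites of the genome. They describe this interval only. The level follows the genome-wide mean. Averaged over the stretches before Myc, in Myc, from Myc to the end of Pvt1 and beyond Pvt1, reads outside called regions were denser than that mean. Not every bin of 100 kb was so dense. From 63.2 to 63.3 Mb all reads came to 0.207 STAT3 and 0.208 STAT5 RPM per kb, under the 0.424 of the genome.

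**Figure D2:**
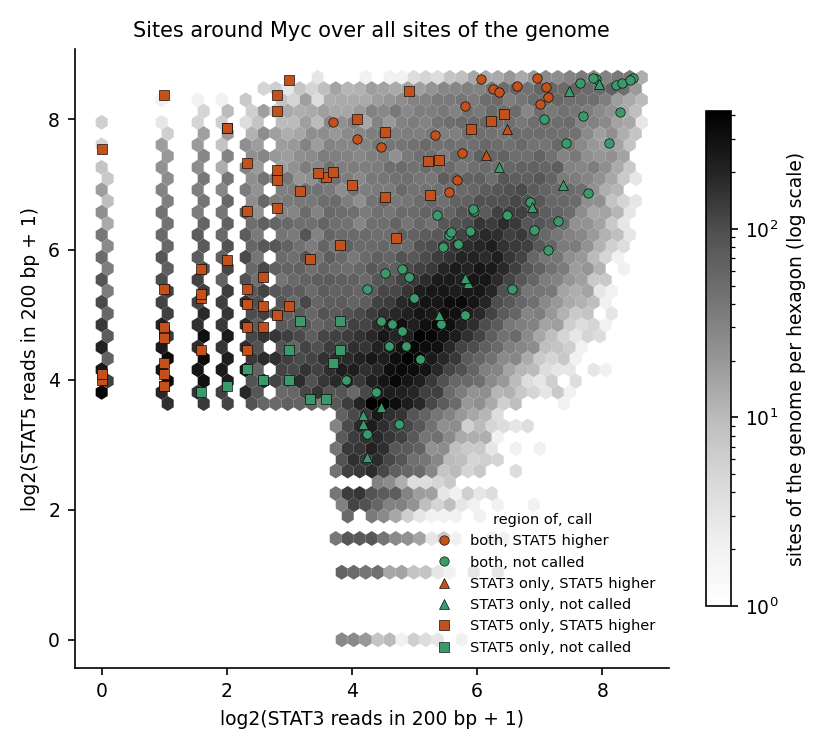
Each coloured point is a site of the Myc interval, by its STAT3 (x axis) and STAT5 (y axis) reads in 200 bp as log2(reads + 1); grey hexagons count all 86148 sites of the genome on a log scale. Marker shape gives the library whose regions made the site and colour the call; 73 points are higher with STAT5 and none with STAT3.

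The promoter of Myc carried both factors. Just after the start of the gene, at chr15:61816951-61817200 (0.1 kb), there were 165 STAT3 reads (7.94 RPM) and 127 STAT5 reads (7.07 RPM). Their ratio was 0.891 (95% interval 0.701 to 1.13), so the libraries did not differ there beyond counting error. Upstream by 1.15 kb, at chr15:61815651-61816000, STAT5 was the taller, with 252 reads (14.0 RPM) against 74 STAT3 reads (3.56 RPM) and a ratio of 3.94 (3.03 to 5.18). The intervals of these neighbouring sites did not overlap: the STAT3 maximum at the promoter was at the gene start and the STAT5 maximum upstream. Between the pair the lowest window held 19 STAT3 and 14 STAT5 reads, so the maxima are separate peaks.

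Further maxima flanked the promoter. At chr15:61814851-61815050, 2.05 kb upstream, 160 STAT5 and 107 STAT3 reads gave a ratio of 1.73 (1.35 to 2.23); it was not called, since the caller compares a window with a local mean that includes its tall neighbours. Inside Myc, from 1 kb after its start, the tallest window lay at 1.75 kb with 50 STAT3 and 42 STAT5 reads, and the median window held 11 and 16. Read density over the gene was 5.24 STAT3 (4.81 to 5.70) and 6.42 STAT5 (5.91 to 6.97) RPM per kb, against 0.424 over the genome in either library. These values include the peak at the gene start.

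**Figure D3:**
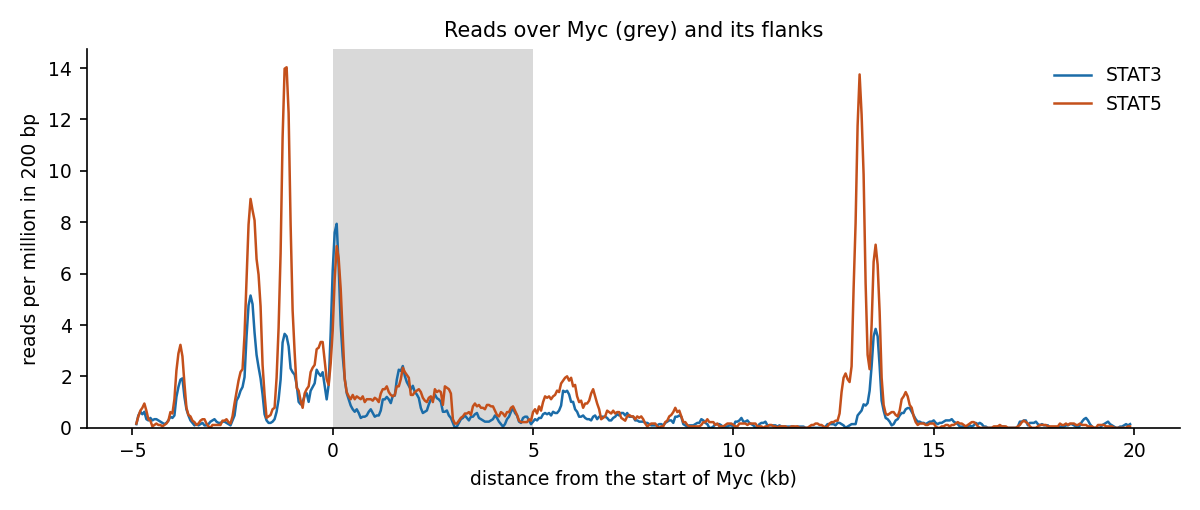
RPM in 200 bp windows (y axis) from 5 kb before to 20 kb after the start of Myc (x axis, kb), for STAT3 (blue) and STAT5 (orange); grey marks Myc. STAT5 is taller at 1.15 kb upstream (252 against 74 reads) and at 13.2 kb (247 against 12), and the factors are alike in height at the gene start (127 against 165).

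Within 20 kb of the gene on either side there were 3 more sites. The site 13.2 kb after the start, chr15:61829901-61830750, had 247 STAT5 and 12 STAT3 reads, a ratio of 23.8 (13.4 to 46.7). Counted over the whole 850 bp of that site the ratio was 4.47, as a second maximum inside it, at 13.55 kb, had 128 STAT5 and 80 STAT3 reads. The next, at 23.1 kb (chr15:61839801-61840250), had 190 STAT5 and 21 STAT3 reads and a ratio of 10.5 (6.65 to 17.3). The site 10.3 kb before Myc (chr15:61806601-61806900) was small, with 18 STAT3 and 8 STAT5 reads (0.514, 0.193 to 1.24, and 0.853 over 400 bp). The tall sites near the gene were all taller with STAT5, other than the one at its start. Farther upstream the first site of the interval, 77.5 kb before Myc (chr15:61739251-61739750), had 137 STAT5 and 11 STAT3 reads, a ratio of 14.4 (7.81 to 29.5). In all 8 sites lay before the gene start, 7 of them regions of STAT5 only.

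The stretch from Myc to the end of Pvt1 was thick with sites: 36 in 278 kb, or 129 per Mb. It held 23 sites of both libraries, 12 of STAT5 only and 1 of STAT3 only, and 17 of the 36 were higher with STAT5. Read density was 1.70 STAT3 (1.67 to 1.74) and 2.64 STAT5 (2.60 to 2.69) RPM per kb, and outside called regions it was still 1.09 and 1.29, over the genome-wide 0.424. Beyond Pvt1 the density of reads was lower, 0.766 STAT3 and 1.48 STAT5, with 96 sites in 1500 kb (64.0 per Mb), of which 52 were higher with STAT5.

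The end of Pvt1 held a pair of very tall STAT5 sites. At 283 kb, chr15:62099701-62100200, there were 395 STAT5 reads (22.0 RPM) and 237 STAT3 reads (11.4 RPM), with a ratio of 1.93 (1.64 to 2.27). At 286 kb, chr15:62102801-62103350, there were 399 STAT5 reads, rank 25 in the genome, and 230 STAT3 reads (2.01, 1.70 to 2.37). STAT5 had taken 98.8% and 99.8% of the 400 combinations of position and strand, so these ratios are compressed. A correction for positions already taken, which is imprecise so close to the ceiling, raised them to 5.65 and 8.10 and made both higher with STAT5.

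At some sites of this stretch the ratio interval lay below 1, though at none past 2-fold, and at most of them this depended on the scaling. The tallest of them lay 160 kb downstream at chr15:61976751-61977150, with 218 STAT3 reads (10.5 RPM) and 116 STAT5 reads (6.46 RPM), a ratio of 0.616 (0.487 to 0.775). At 58.5 kb (chr15:61875351-61875750) 156 STAT3 reads met 86 STAT5 reads (0.638, 0.484 to 0.835). At 94.2 kb (chr15:61910901-61911350) the counts were 93 and 41 (0.510, 0.344 to 0.744). The site at 253 kb (chr15:62070201-62070600) had 140 and 63 reads in 200 bp (0.521, 0.380 to 0.706), but the medians of the STAT3 and STAT5 fragments lay 88.5 bp apart and over 400 bp its ratio was 0.825. A small site at 972 kb, with 26 STAT3 and 9 STAT5 reads (0.401, 0.165 to 0.882, and 0.617 over the whole site), was the last of the 5 whose interval lay below 1. Scaled instead by reads in region-free bins of 10 kb, where STAT3 falls to 0.723 of its level, the ratios of the sites at 58.5, 94.2, 160, 253 and 972 kb were 0.883, 0.706, 0.852, 0.720 and 0.554. Under that scaling the interval held 1 at 4 of the 5 sites, and lay below 1 only at 253 kb (0.526 to 0.977).

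Next to these, other sites had STAT5 and hardly any STAT3. At 244 kb, chr15:62061051-62061550, a single STAT3 read met 333 STAT5 reads (18.5 RPM), a ratio of 385 with a counting interval of 68.7 to 15263; over 400 bp it was 69.9. At 201 kb, chr15:62017701-62018050, there were 232 STAT5 and 3 STAT3 reads (89.5, 30.2 to 437), and over 400 bp the ratio was 38.6. The following site, 3.65 kb on (chr15:62021151-62021700), had 355 STAT5 and 75 STAT3 reads (5.48, 4.26 to 7.12), and at 184.6 kb (chr15:62001151-62001750) both were tall, with 367 and 296 reads (1.43, 1.23 to 1.68). STAT5 had taken 91.75% of the positions at 184.6 kb. The ratio there was 2.14 with the correction for taken positions and 1.98 under region-free scaling. Sites of this stretch thus ran from many reads of both factors to a single STAT3 read, with ratio intervals far apart.

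Between Pvt1 and the stretch with most STAT5 reads, sites with much STAT3 stood near 473 and 497 kb. The site at 473 kb (chr15:62289601-62290000) had 374 STAT5 and 247 STAT3 reads (1.75, 1.49 to 2.07), and was a region of STAT3 only although STAT5 ranked 442 in the genome there; this follows from the local means of the caller. STAT5 had taken 93.5% of the positions there. The ratio was 3.29 with the correction for taken positions and 2.42 under region-free scaling, and both made the site higher with STAT5. At 497 kb (chr15:62313851-62314350) STAT3 reached 310 reads and STAT5 277 (1.03, 0.876 to 1.22). Beside it, at 498 kb (chr15:62315101-62315450), the counts were 275 and 198 (0.833, 0.690 to 1.00). Under region-free scaling the ratios at 497 and 498 kb were 1.43 and 1.15, and with the correction for taken positions 0.915 and 0.68. At 592 kb (chr15:62409201-62409750) STAT5 stood nearly alone again, with 232 reads against 3 (89.5, 30.2 to 437).

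The most STAT5 reads lay far from the gene, 683 to 883 kb downstream. Ranked by STAT5 reads among 25569 bins of 100 kb over the genome, the bin from 62.6 to 62.7 Mb was number 6, with 11712 reads, and the bin from 62.5 to 62.6 Mb number 10, with 10122. By STAT3 reads they ranked 123 (4753 reads) and 138 (4638). The median bin of the genome held 314 STAT5 and 479 STAT3 reads. These 200 kb are 10.5% of the interval and held 39.4% of its STAT5 and 26.4% of its STAT3 reads. For comparison, the bin that ends with Pvt1, from 62 to 62.1 Mb, ranked 42 by STAT5 (7584 reads) and 164 by STAT3 (4484), and the bin with Myc itself, from 61.8 to 61.9 Mb, 429 and 666.

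By number of called sites the bin from 62.6 to 62.7 Mb, with 19, ranked 71, where the median bin of the genome held 1. The bin from 62.5 to 62.6 Mb held 14 (rank 685), fewer than the 17 (rank 211) of the bin that ends with Pvt1. Called sites leave out tall maxima: 8 of 32 maxima with 100 or more reads were uncalled in these 200 kb, against 14 of 80 in the interval. Together the 2 bins with most STAT5 reads held 33 called sites, a median of 3.95 kb apart. Their median was 186 STAT5 and 55 STAT3 reads, against 48 and 19 at the other 108 sites of the interval. STAT5 reached 100 reads at 26 of the 33 sites and STAT3 at 8. More than 90% of positions were taken by STAT5 at 8 of the 33, against 4 of the other 108. STAT5 was higher at 23 of the 33 (69.7%) and at 50 of the other 108 (46.3%). The bins were picked for holding the most STAT5 reads, so taller STAT5 sites there follow from the choice, and these values are a description.

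**Figure D4:**
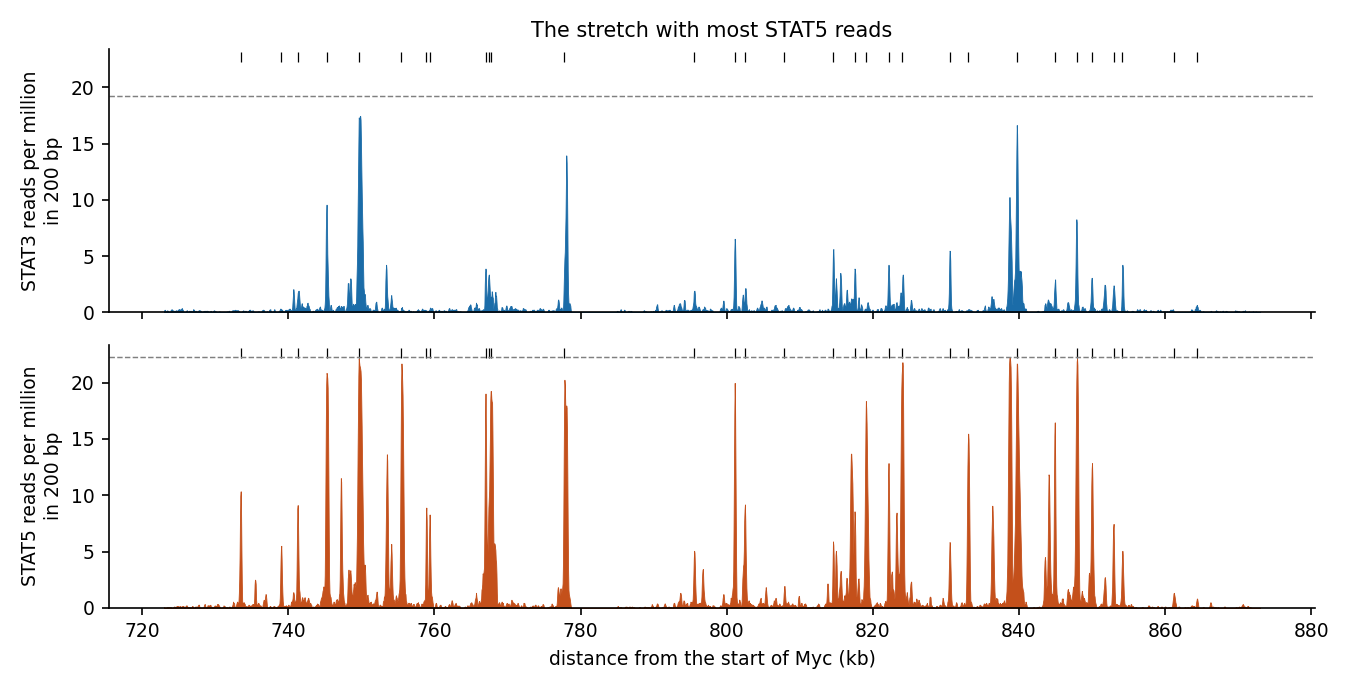
RPM in 200 bp windows (y axis) over the middle of these 200 kb (x axis, distance from the start of Myc in kb), for STAT3 (top) and STAT5 (bottom). Ticks mark called sites and the dashed line the most reads a window can hold; the STAT5 maximum at 839 kb reaches that line with 400 reads, others with 390 to 398 reads come close, and STAT3 is tall at only some of them.

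STAT3 height differed widely between neighbouring sites at which STAT5 was close to the ceiling. At 750 kb, chr15:62566451-62567150, there were 398 STAT5 reads (22.2 RPM) and 360 STAT3 reads (17.3 RPM), the most STAT3 reads of any site in the interval and rank 68 in the genome. Only 5.85 kb farther, at 756 kb (chr15:62572301-62572800), STAT5 had 390 reads and STAT3 7. The ratios were 1.28 (1.11 to 1.48) and 64.5 (31.0 to 161). At 734 kb (chr15:62550251-62550700) there were 186 STAT5 reads and no STAT3 read, which against a floor of 3 reads is a ratio of 71.7; the exact interval of the ratio began at 57.8. The difference in STAT3 between these places lies within a single library, so the scaling between libraries does not touch it.

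Other tall sites of this stretch lay between those extremes. STAT3 was also tall at 713 kb (chr15:62530001-62530550), with 318 reads against 378 STAT5 reads (1.38, 1.18 to 1.60), and at 840 kb (chr15:62656501-62656900), with 346 against 390 (1.30, 1.13 to 1.51). At 745 kb (chr15:62562051-62562550) there were 375 STAT5 and 199 STAT3 reads (2.18, 1.83 to 2.60). That ratio rose to 3.02 under region-free scaling and to 4.66 with the correction for taken positions, and both made the site higher with STAT5. STAT5 was higher at 824 kb (chr15:62640751-62641250; 392 and 66 reads, 6.87, 5.28 to 9.06) and at 848 kb (chr15:62664651-62665200; 398 and 124 reads, 3.71, 3.03 to 4.58). The STAT5 counts of the 7 tallest sites of the interval, 390 to 399 of 400, differ by less than their counting error and are bounded by the ceiling, so no order among them can be read. Corrected for positions already taken, the ratios at 750, 756, 824 and 848 kb were 2.66 (then called higher with STAT5), 242, 25.1 and 16.5, and those at 713 and 840 kb were 2.12 and 2.13.

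Across the interval 62 sites had 100 or more STAT5 reads (44.0%, against 16.5% of all sites of the genome) and 25 had 100 or more STAT3 reads (17.7%, against 9.39%). Of those 62, 10 (16.1%) had STAT3 under 4 times its genome-wide mean, against 10.7% of such sites in the genome. None of the 25 tall STAT3 sites had STAT5 under that level, against 0.136% in the genome. Both levels, 100 reads and 4 times the mean, were set with the data known. The 10 sites had 134 to 390 STAT5 and 0 to 7 STAT3 reads, and 6 of them lay in the 200 kb described above. Among sites with 100 or more STAT5 reads, 43 of 62 (69.4%) were higher with STAT5, where 61.1% of such sites of the genome were.

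**Figure D5:**
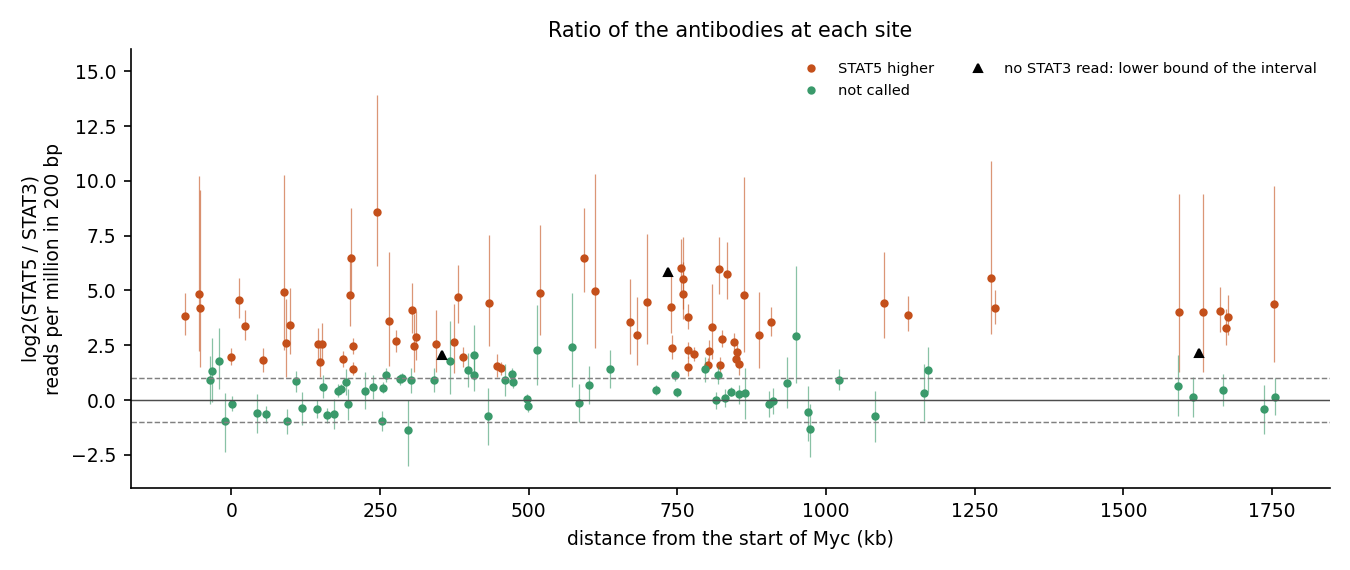
The ratio of STAT5 to STAT3 RPM at each site as log2 (y axis) against distance from the start of Myc in kb (x axis), with exact 95% counting intervals. Triangles give the lower bound of the interval at the 3 sites with no STAT3 read and dashed lines mark 2-fold. Sites higher with STAT5 (orange) occur along the whole interval, beside the 68 sites not called (green). These include the 31 sites whose interval holds 1, the 5 whose interval lies below 1, and sites with intervals above 1 but not wholly beyond 2-fold. Some of the latter are small with wide intervals. Others are tall with narrow ones and STAT5 near the ceiling, such as the site at 750 kb (398 STAT5 and 360 STAT3 reads, 1.11 to 1.48).

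The far end of the desert held few sites. Beyond 1000 kb there were 20, of which 11 were higher with STAT5, 5 had 100 or more STAT5 reads and none had 100 or more STAT3 reads. Counts there reached 255 STAT5 and 60 STAT3 reads. No site was called over 307.6 kb, from 1283 to 1591 kb. After that gap the bin from 63.4 to 63.5 Mb held 9 sites, 7 of them of STAT5 only. The tallest were at 1663, 1673 and 1677 kb, with 143, 127 and 145 STAT5 and 10, 15 and 12 STAT3 reads. The ratios of these 3 were 16.5, 9.80 and 14.0, and their intervals, which together run from 5.72 to 35.2, overlap. The last site of the interval, at 1755 kb (chr15:63572151-63572500), had 27 STAT3 and 26 STAT5 reads.

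Since the local means left tall maxima uncalled, all maxima with 100 or more reads of either antibody were also listed, a step added with the data known. There were 80 in the interval, 14 of them (17.5%) in a window that shared no base with a called site, against 4.41% over the genome. In the 2 bins with most STAT5 reads 8 of 32 were uncalled, so the called sites there leave out tall maxima. The tallest uncalled maximum, at 839 kb (chr15:62655651-62655850), had all 400 STAT5 positions taken and 195 STAT3 reads. Others in the same stretch stood at 817 kb with 246 STAT5 and 23 STAT3 reads, and at 747 kb with 207 and 11. Of the 80 maxima 55 were higher with STAT5 (68.8%, against 48.9% over the genome) and none with STAT3 (against 5.84%).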

How the data were processed

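Per the submitters' processing notes the reads were placed on mm9; the sources used here name no aligner or filter. Each deposited file lists 25 nt reads by first base, last base and strand, at most 1 per position and strand. A score column deposited beside them is 0 throughout and was ignored. Read 5′ ends were moved by 50 bp in the 3′ direction and binned into 200 bp windows at a step of 50 bp. A called window had 5 reads or more, a count 4-fold or more above each of 3 means (genome-wide, 5 kb, 10 kb), and a 1-sided Poisson p of at most 1e-05 after Benjamini-Hochberg adjustment over the genome. Windows up to 100 bp apart were joined, regions with over 80% of summit reads on 1 strand were dropped, and overlapping regions of the libraries were merged, with the centre at the taller summit by RPM. Ratios have exact conditional Clopper-Pearson 95% intervals; with 1 library each no p-value was computed between them. The caller was tested on simulated reads with isolated sites on an even background, and the ratio intervals on simulated Poisson counts. Crowded tall sites, where local means include tall neighbours, were not simulated. The tools were Python 3.11.15 with numpy 2.4.6, pandas 2.3.3, scipy 1.17.1 and, for plots, matplotlib 3.10.9. The interval, the lists and the tests were chosen with earlier results of these data known. Named sites were those within 20 kb of Myc, the 10 tallest of each antibody, the 5 in either direction whose ratio interval began farthest from 1, and the first and last; others were picked after their values were seen. Gene positions are those stated for the interval. No annotation or sequence of mm9 was used, and no sequence of a site is given.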

Additional observations from a re-analysis of the deposited data

How the results depend on the processing

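The number of sites follows the caller. With a minimum of 8-fold the interval had 30 STAT3 and 59 STAT5 regions and 70 sites, of which 19 were of both libraries and 40 higher with STAT5. With the genome-wide mean alone it had 157 STAT3 and 200 STAT5 regions and 227 sites, of which 111 were of both. There STAT5 was higher at 80 sites and STAT3 at 2; the latter lay at 195 kb (20 STAT3 and 2 STAT5 reads) and 656 kb (14 and 0). The other 50 planned recalculations of these counts stayed within 1.5 times. The share higher with STAT5 ran from 35.2 to 61.7% in the interval and from 22.5 to 35.2% over the genome, and was the larger in the interval under each planned setting. Among named sites, the calls that changed were at 283, 286, 473, 745 and 750 kb, each from not called to higher with STAT5, under wider counting, region-free scaling or the correction for taken positions, whose interval treats corrected counts as reads. Reads cannot exceed 400 in 200 bp, which limits ratios at the tallest sites. No paired analysis was possible because each antibody has 1 library. Beyond what each threshold fixes, the cause was not tested.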

Other observations

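Peak positions of the factors were also compared where each had 50 or more reads. At these 43 sites of the Myc interval the medians of the STAT3 and STAT5 fragments lay a median of 14 bp apart (quartiles 6 and 33.2), against 13.5 bp (6 and 25.5) at 14851 such sites of the genome. Heights of the factors over the 141 sites went together: Spearman's rho was 0.558, and Pearson's r of log2(reads + 1) was 0.545. Over all 86148 sites these were 0.375 and 0.326. These are correlations across sites that share their libraries and were chosen for reads in at least 1 of them, and are given as a description.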
